A study of Mus musculus with 4 samples.

Results

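The RNAs described here are those transcribed from the mouse mitochondrial genome, taken as every row of the count table whose gene name begins with mt-. There were 37 of them among 37411 rows, namely 13 mRNAs, 2 rRNAs and 22 tRNAs, and all 37 genes that GENCODE places on the mitochondrial chromosome had a row. The RNA was total RNA that came down from mouse hippocampus with a kinesin antibody, which the design text describes as one against KIF5C, the heavy chain of a neuronal kinesin-1 motor, or with control mouse IgG. The mice were 7 to 9 weeks old, no genetic change or treatment is given for them, and both antibodies were used on the same kind of tissue. The hippocampi of 2 mice went into a precipitation, and 6 precipitations were pooled to give 2 samples, without a statement of whether 6 were counted for each antibody. The lysate was made with the detergent NP-40 for 30 min and cleared of debris by a spin. There were 2 libraries for each antibody, called IgG 1, IgG 2, KIF5C 1 and KIF5C 2, and there was no library of input RNA. The labels do not state whether the 2 libraries made with one antibody had separate animals behind them. The p-values below therefore reflect the spread between libraries, and that spread may be technical.

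The mitochondrial genome is a small circle that is transcribed from both strands as long precursors. In the heavy-strand precursor the tRNAs lie between the rRNAs and mRNAs, and their excision releases the RNAs on either side. The 12S and 16S rRNAs, mt-Rnr1 and mt-Rnr2, form the small and large subunits of the mitochondrial ribosome, and the mRNAs encode subunits of respiratory complexes I, III and IV and of ATP synthase. Transport by kinesin of whole mitochondria along axons and dendrites is well known in neurons.

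The start of the heavy-strand transcript shows this layout. The 12S rRNA, the valine tRNA mt-Tv and the 16S rRNA lie end to end, without a base between them. Their adjoining sequences are given because these 3 neighbours had very different counts. They are from GENCODE release M21 (GRCm38, plus strand), and capitals mark the valine anticodon.
mt-Rnr1, last 60 bases, chrM:965-1024: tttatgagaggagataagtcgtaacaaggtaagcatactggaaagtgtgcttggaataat
mt-Tv, chrM:1025-1093: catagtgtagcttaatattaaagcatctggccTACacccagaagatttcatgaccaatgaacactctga
mt-Rnr2, first 60 bases, chrM:1094-1153: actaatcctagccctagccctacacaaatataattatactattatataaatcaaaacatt

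The libraries held 12543510 (IgG 1), 11059266 (IgG 2), 15172432 (KIF5C 1) and 14623843 (KIF5C 2) counts. CPM are counts scaled to the library total, and TMM-scaled CPM are scaled to that total adjusted by the TMM factor of edgeR. The TMM-scaled log2 CPM of the libraries correlated at 0.954 to 0.983 across the genes tested. IgG 2 stood apart in Lars2 and in nuclear rRNA-like loci. Lars2 had 22162 counts there against 168 to 320 in the other libraries, and Gm42418 had 30447 against 992 to 1857. For results that rest on IgG 2, values without it or for each antibody apart are therefore given. Summed markers of neurons were at 1631 and 1879 TMM-scaled CPM with IgG and at 2498 and 2354 with KIF5C. Those of oligodendrocytes were at 1625 and 1631 against 1256 and 1395, and those of choroid plexus at 405 and 218 against 141 and 104. Summed markers of hippocampal excitatory neurons were at 231 and 270 with IgG and at 319 and 293 with KIF5C. Those of endothelium were at 56.0 and 49.7 against 47.4 and 48.4. The antibodies did not overlap in any of these sums, as in 52.5% of all genes tested on this scale. The part of these markers in the results below was not tested. The sums for astrocytes, at 434 to 548, and for microglia, at 90.9 to 122, overlapped, and no marker was at 0. From such bulk RNA, fewer cells of a type and less RNA per cell cannot be told apart.

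Nearly all mitochondrially encoded counts were rRNA. All members together made up 10.1% of counts in IgG 1, 34.4% in IgG 2, 14.2% in KIF5C 1 and 33.4% in KIF5C 2. The rRNAs alone made up 9.44%, 33.8%, 13.6% and 32.9% in the same order, and the 13 mRNAs 0.685%, 0.621%, 0.647% and 0.514%. Of these 13, 6 had next to no counts, as described below. The 22 tRNAs had 180, 242, 203 and 217 counts, or 0.00144%, 0.00219%, 0.00134% and 0.00148%. Exact 95% binomial intervals, which cover counting error only, extended at most 0.0280 percentage points to either side of the share of all members, 0.00463 for the mRNAs and 0.000280 for the tRNAs. The share of rRNA was high in the libraries numbered 2 and low in those numbered 1, with either antibody. The share of mRNA was instead the lower in the libraries numbered 2 with either antibody. A share also falls when another RNA takes up more of the counts. TMM-scaled, the summed mRNAs were the higher in the libraries numbered 2. They were at 5499 CPM in IgG 1, 8733 in IgG 2, 5066 in KIF5C 1 and 5845 in KIF5C 2. The share of tRNA was the higher in IgG 2, and between the KIF5C libraries it differed by less than the counting error.

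The difference in rRNA lay in the 16S rRNA. This RNA had 923026 counts in IgG 1, 3563468 in IgG 2, 1710443 in KIF5C 1 and 4661282 in KIF5C 2, which was 7.36%, 32.2%, 11.3% and 31.9% of all counts. The 12S rRNA had 261034, 176172, 349159 and 152670 counts, or 2.08%, 1.59%, 2.30% and 1.04%. The share of 16S rRNA was 4.38 times as large in IgG 2 as in IgG 1 and 2.83 times as large in KIF5C 2 as in KIF5C 1, whereas that of 12S rRNA was 0.765 and 0.454 times as large. TMM-scaled, 12S rRNA was higher in IgG 2 than in IgG 1 (22406 against 16708 CPM). It was lower in KIF5C 2 than in KIF5C 1 (11868 against 18020). With the 16S rRNA set aside, the other 36 members held 2.77%, 2.22%, 2.95% and 1.56% of counts. This summed share, most of it 12S rRNA and mt-Co1, was the lower in the libraries numbered 2, whereas the mRNAs other than mt-Co1 held 0.0986% and 0.129% with IgG and 0.144% and 0.116% with KIF5C.

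Per nucleotide, 16S rRNA had 2.13 (IgG 1), 12.2 (IgG 2), 2.96 (KIF5C 1) and 18.4 (KIF5C 2) times the counts of 12S rRNA, a ratio within a library that needs no scaling between libraries. It was 5.72 times as high in IgG 2 as in IgG 1 and 6.23 times as high in KIF5C 2 as in KIF5C 1. The 2 libraries of each number lay together, and the numbers did not overlap (exact permutation test on the log2 ratio, two-sided p = 0.333, the smallest that 2 against 2 allows). Between antibodies the ratio was 1.39 times as high with KIF5C among libraries numbered 1 and 1.51 times among those numbered 2. The mean log2 difference of 0.53 was smaller than the spread within each antibody (exact permutation test, two-sided p = 0.667). The labels do not say what the replicate number marks, so a day, a pool or a library preparation cannot be told apart here.

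**Figure D1:**
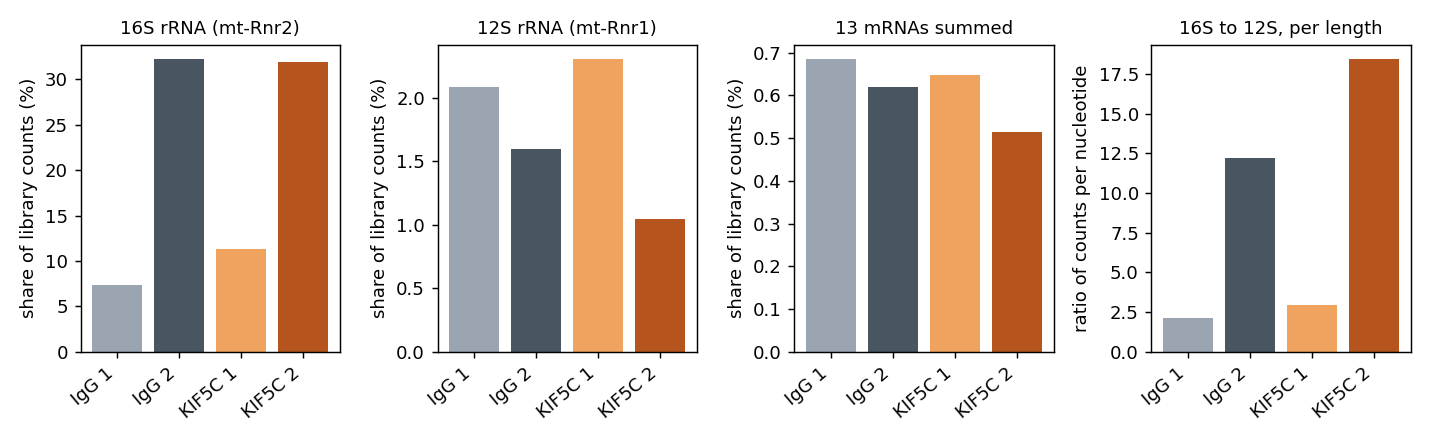
Bars give the share of all counts (%) in each of the 4 libraries for 16S rRNA, 12S rRNA and the summed mRNAs, and, at the right, the ratio of 16S to 12S counts per nucleotide. Each bar is 1 library, so there are no error bars; 16S rRNA is at 32.2% and 31.9% in the libraries numbered 2 and at 7.36% and 11.3% in those numbered 1.

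Among the mRNAs, counts were concentrated in mt-Co1, which encodes the catalytic subunit of cytochrome c oxidase (complex IV). It had 73534 counts in IgG 1, 54396 in IgG 2, 76267 in KIF5C 1 and 58188 in KIF5C 2, and it held 77.4% to 85.6% of all mRNA counts of a library. That total is in effect the sum of 7 mRNAs, since the other 6, described below, had next to no counts. On the scale of TMM-scaled CPM per kilobase of transcript mt-Co1 was at 2548 to 4478, and mt-Nd1, a complex I subunit and the next in level of the 7, was at 285 to 628. The ranges of this pair did not overlap over the libraries. mt-Cytb, the cytochrome b of complex III, was the third in level, with 4403, 5548, 8059 and 6476 counts, and mt-Nd5, a complex I subunit, was the fourth, with 2048, 2095, 2939 and 2468. The ranges per kilobase of mt-Nd1 and mt-Cytb overlapped, although mt-Nd1 was the higher within each library. The complex I subunits mt-Nd4 and mt-Nd2 changed places, with mt-Nd4 the higher in both IgG libraries and mt-Nd2 the higher in both KIF5C libraries. mt-Nd6, the one mRNA on the light strand, had 24, 90, 24 and 21 counts and was last of the 7 in every library. Over the libraries, the ranges per kilobase of mt-Nd5, mt-Nd4 and mt-Nd2 overlapped, and they lay below those of mt-Cytb and above those of mt-Nd6.

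The remaining 6 mRNAs had next to no counts. They were mt-Co2 and mt-Co3, further subunits of complex IV, mt-Atp6 and mt-Atp8, subunits of ATP synthase, and mt-Nd3 and mt-Nd4l, subunits of complex I. mt-Co2 and mt-Nd3 had 1 count each, both in IgG 2, and the other 4 had none in any library. At these depths 0 counts allows up to 0.239 CPM in IgG 1, 0.271 in IgG 2, 0.198 in KIF5C 1 and 0.205 in KIF5C 2 (3 counts per library, counting error only). The 6 follow each other on the heavy strand, from base 7013 to base 10173 of the mitochondrial chromosome, between mt-Co1 and mt-Nd4. The 3 tRNA genes within that stretch, mt-Tk, mt-Tg and mt-Tr, also had 0 counts, as had 10 of all 22 tRNAs.

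**Figure D2:**
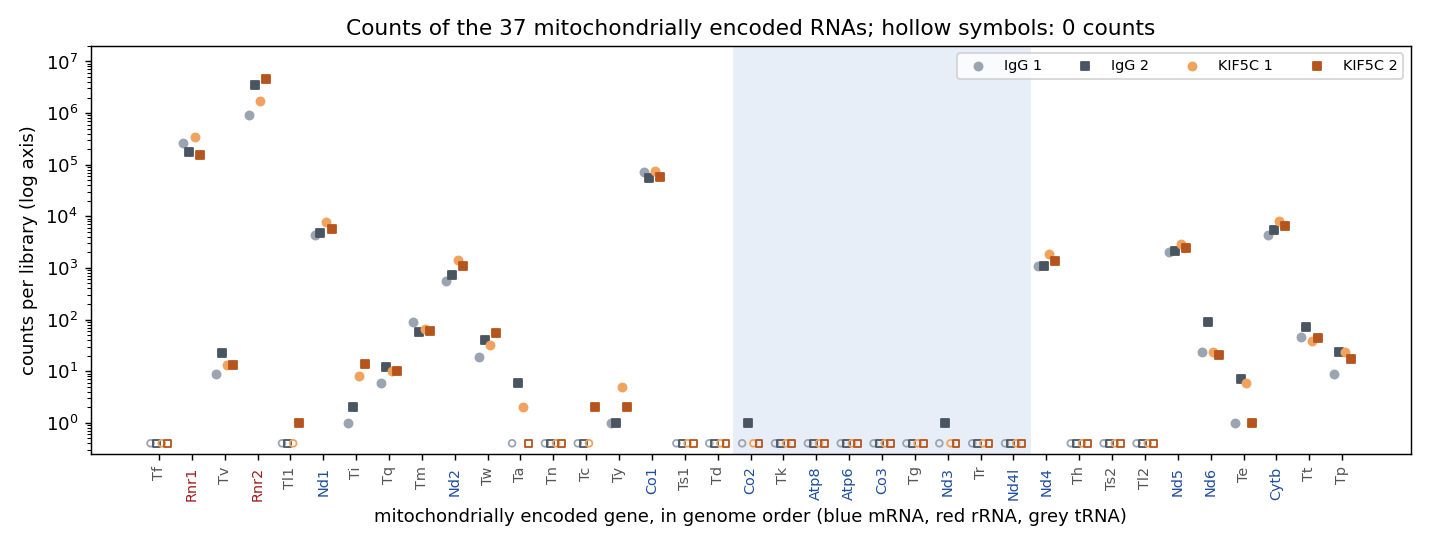
Points give the counts of each of the 37 genes in each library on a log axis, in the order of the mitochondrial genome, with hollow symbols at the bottom for 0 counts. The shaded stretch from mt-Co2 to mt-Nd4l has 2 counts in all, against 21 to 76267 per library for the mRNAs on either side.

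The stretch without counts has a near-identical copy in the nuclear genome. GENCODE annotates 7 pseudogenes in a row on chromosome 1 (GRCm38, 24611535 to 24616197, minus strand) that match mitochondrial mRNAs at 99% identity or more. The copies Gm28661, Gm10925, Gm28437, Gm28438 and Gm10222 match mt-Co2, mt-Atp6, mt-Co3, mt-Nd3 and mt-Nd4l, in that order. They cover 99.1% to 99.9% of the first 4 of these and 294 of the 297 bases of mt-Nd4l. Of the 7 mRNAs with counts, none has such a copy over more than 90% of its length. Gm28439 covers 63.6% of mt-Nd4 and Gm29216 covers 31.3% of mt-Co1. At lower identity, Gm13340 on chromosome 2 matches mt-Co1 over 1545 bases at 97.6%. No copy is annotated as such for mt-Atp8, but the starts of mt-Co2 and mt-Atp6, which flank it, are 914 bases apart on both chromosomes. None of these 7 pseudogenes had a row among those analysed here, and of all unprocessed pseudogenes in GENCODE 27 of 2642 (1.02%) had one, against 95.7% of protein-coding genes. Reads that lie within a stretch identical in a gene and its copy cannot be told apart by sequence. Whether this played a part in the 0 counts was not tested. No statement on the level of these 6 mRNAs is made from their counts.

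How close the copies are can be seen in mt-Nd4l (GENCODE release M21, GRCm38). Gm10222 holds all of it but the last 3 bases, which are in capitals and lie beyond the end of the annotated copy.
mt-Nd4l, chrM:9877-10173, plus strand: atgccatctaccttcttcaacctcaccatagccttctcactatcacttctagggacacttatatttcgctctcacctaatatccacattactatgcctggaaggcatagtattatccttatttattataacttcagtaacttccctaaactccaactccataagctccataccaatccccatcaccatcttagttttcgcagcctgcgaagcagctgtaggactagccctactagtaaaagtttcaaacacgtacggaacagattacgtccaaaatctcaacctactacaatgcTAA
Gm10222, chr1:24612407-24612700, minus strand: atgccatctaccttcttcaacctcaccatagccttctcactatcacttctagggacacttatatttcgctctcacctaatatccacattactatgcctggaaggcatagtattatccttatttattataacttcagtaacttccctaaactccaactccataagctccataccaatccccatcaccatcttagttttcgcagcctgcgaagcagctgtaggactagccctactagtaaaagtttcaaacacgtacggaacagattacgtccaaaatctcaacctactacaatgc
Over its 345 annotated bases Gm28438 differs from mt-Nd3 by the single substitution T3C, counted from the 5′ end of mt-Nd3, whose base is given first.

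**Figure D3:**
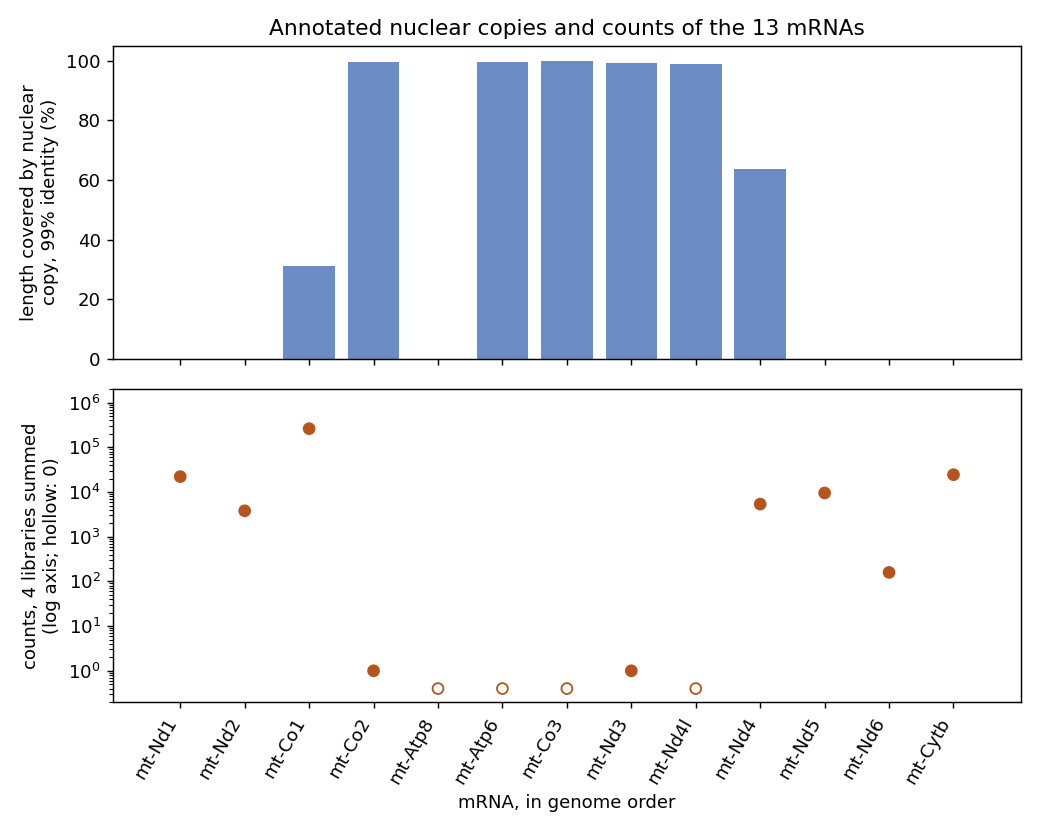
The bars give the percent of each mRNA's length that an annotated nuclear pseudogene covers at 99% identity or more, and the points below give its counts summed over the 4 libraries on a log axis, with hollow points for 0. The 5 mRNAs that are covered nearly whole have at most 1 count, as does mt-Atp8, which has no annotated copy.

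Of the 22 tRNAs, 10 had 0 counts in every library, and 5 had enough to be tested. The methionine tRNA mt-Tm led with 89 counts in IgG 1, 57 in IgG 2, 66 in KIF5C 1 and 60 in KIF5C 2. The threonine tRNA mt-Tt had 45, 72, 38 and 43 counts, and the tryptophan tRNA mt-Tw 19, 40, 32 and 54. TMM-scaled, all 3 were highest in IgG 2, at 7.25, 9.16 and 5.09 CPM. As CPM of the library total, mt-Tm was highest in IgG 1 (7.10), mt-Tt in IgG 2 (6.51) and mt-Tw in KIF5C 2 (3.69). The proline tRNA mt-Tp, which lies on the light strand, had 9, 23, 23 and 17 counts, and mt-Tv 9, 22, 13 and 13. The other 7 tRNAs with counts were too low to be tested. Of these, the glutamine tRNA mt-Tq had 6 and 12 counts with IgG and 10 and 10 with KIF5C, and the isoleucine tRNA mt-Ti had 1 and 2 with IgG and 8 and 14 with KIF5C. The glutamate tRNA mt-Te had 1 and 7 with IgG and 6 and 1 with KIF5C, the alanine tRNA mt-Ta 0 and 6 against 2 and 0, and the tyrosine tRNA mt-Ty 1 and 1 against 5 and 2. The cysteine tRNA mt-Tc had 2 counts and the leucine tRNA mt-Tl1 had 1, all in KIF5C 2. mt-Tv lies between the 12S and 16S rRNAs, whose lowest count in any library was 152670. It is 69 bases long, against 955 for the 12S and 1582 for the 16S rRNA. The part of RNA length in these counts was not tested. No statement on the level of the tRNAs relative to the rRNAs is made from them. The sequences of the 3 tRNAs with the most counts follow, with the anticodon in capitals. They are all on the plus strand and from GENCODE release M21 (GRCm38).
mt-Tm, chrM:3845-3913: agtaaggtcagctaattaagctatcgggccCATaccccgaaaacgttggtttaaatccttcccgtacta
mt-Tt, chrM:15289-15355: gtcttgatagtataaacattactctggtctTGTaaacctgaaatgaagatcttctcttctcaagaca
mt-Tw, chrM:4950-5016: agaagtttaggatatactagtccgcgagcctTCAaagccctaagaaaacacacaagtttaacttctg

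The counts do not give the amount of RNA that either antibody brought down. Whether the level of an RNA relative to the others of its library differed between KIF5C and IgG was tested on 14357 genes. That included 14 members, 7 of them mRNAs, 2 rRNAs and 5 tRNAs. Of the 23 left out, 14 had 0 counts throughout, namely 4 mRNAs and 10 tRNAs. Fold changes are TMM-scaled KIF5C over IgG from the quasi-likelihood test of edgeR with Benjamini-Hochberg adjustment over all genes at a threshold of 0.05. No member passed the test in either direction, against 4.07% of all genes tested (3.33% higher, 0.745% lower). At an unadjusted p under 0.05 there were 3 of 14, mt-Nd6, mt-Tm and mt-Tt, against 21.5% of all genes. limma-voom also called none, and neither did DESeq2 among the 9 of the 14 to which it gave an adjusted p. DESeq2 gave none for mt-Tv, mt-Tw, mt-Nd6, mt-Tt and mt-Tp, so it could not call these. With a replicate block, mt-Nd6 and mt-Tt passed as lower in edgeR, where 1679 of all genes passed in either direction. The labels do not state that libraries of the same number are paired. The median log2 fold change was -0.10 for the mRNAs, -0.29 for the rRNAs and -0.68 for the tRNAs, beside -0.03 for all genes. All 3 medians turned with the IgG library. For KIF5C 1 and KIF5C 2, the mRNA median was 0.46 and 0.62 against IgG 1 but -0.76 and -0.47 against IgG 2. The rRNA median was 0.34 and 1.06 against IgG 1 but -1.34 and -0.62 against IgG 2, and the tRNA median 0.22 and 0.81 but -1.62 and -1.15.

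Neither the rRNAs nor mt-Co1 differed between antibodies beyond the spread between libraries. On the scale of TMM-scaled CPM, 16S rRNA was at 59079 and 453210 with IgG and at 88277 and 362353 with KIF5C, so the KIF5C libraries lay inside the range of the IgG libraries. Its log2 fold change was -0.19 (SE 0.93, adjusted p = 0.933), and it was 1.94 without IgG 2 and -1.01 without IgG 1. 12S rRNA was at 16708 and 22406 with IgG and at 18020 and 11868 with KIF5C, so its value was -0.39 (SE 0.47, adjusted p = 0.671). mt-Co1 was at 4707 and 6918 with IgG and at 3936 and 4523 with KIF5C. Its groups did not overlap on this scale, as in 52.5% of all genes tested, but they did as a share of all counts, and its value of -0.46 (SE 0.38, adjusted p = 0.506) did not pass. mt-Tm was the other tested member whose groups did not overlap. mt-Nd2 was at 36.1 and 91.4 with IgG and at 73.6 and 85.1 with KIF5C. Its value of 0.33 (SE 0.31, adjusted p = 0.577) was the only positive one of the 14, and it was 1.15 (adjusted p = 0.0332) without IgG 2. With library totals in place of TMM, which moved the median of all genes from -0.03 to 0.11, 7 were positive and 7 negative, so 6 members changed direction with the scaling.

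The largest antibody value was that of mt-Nd6, and it rested on 1 library. mt-Nd6 was at 1.54 and 11.4 TMM-scaled CPM with IgG and at 1.24 and 1.63 with KIF5C. IgG 2 was high and the other 3 libraries lay together, so the groups overlapped. As CPM of the library total it was at 1.91 and 8.14 with IgG and at 1.58 and 1.44 with KIF5C, where the groups did not overlap, as in 21.6% of all genes. The log2 fold change was -2.09 (SE 0.63, adjusted p = 0.0681). It was -0.10 (adjusted p = 0.935) without IgG 2, and between -3.01 and -1.89 with an adjusted p of at most 0.0423 when any 1 of the other libraries was left out. mt-Tt was at 2.88 and 9.16 with IgG and at 1.96 and 3.34 with KIF5C, with a value of -1.13 (SE 0.46, adjusted p = 0.161) that was -0.14 without IgG 2 and -1.82 (adjusted p = 0.00342) without IgG 1. In the authors' deposited table, whose log2 fold changes run from KIF5C to IgG, none of the 9 members with an adjusted p was under 0.05, and mt-Nd6 was at 1.02 (SE 0.34) with an unadjusted p of 0.00267 and no adjusted p. mt-Nd6 lies on the light strand opposite the heavy-strand transcript. The strandedness of the libraries is not given in the sources used here, so reads from the opposite strand over this gene cannot be told apart from its own.

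**Figure D4:**
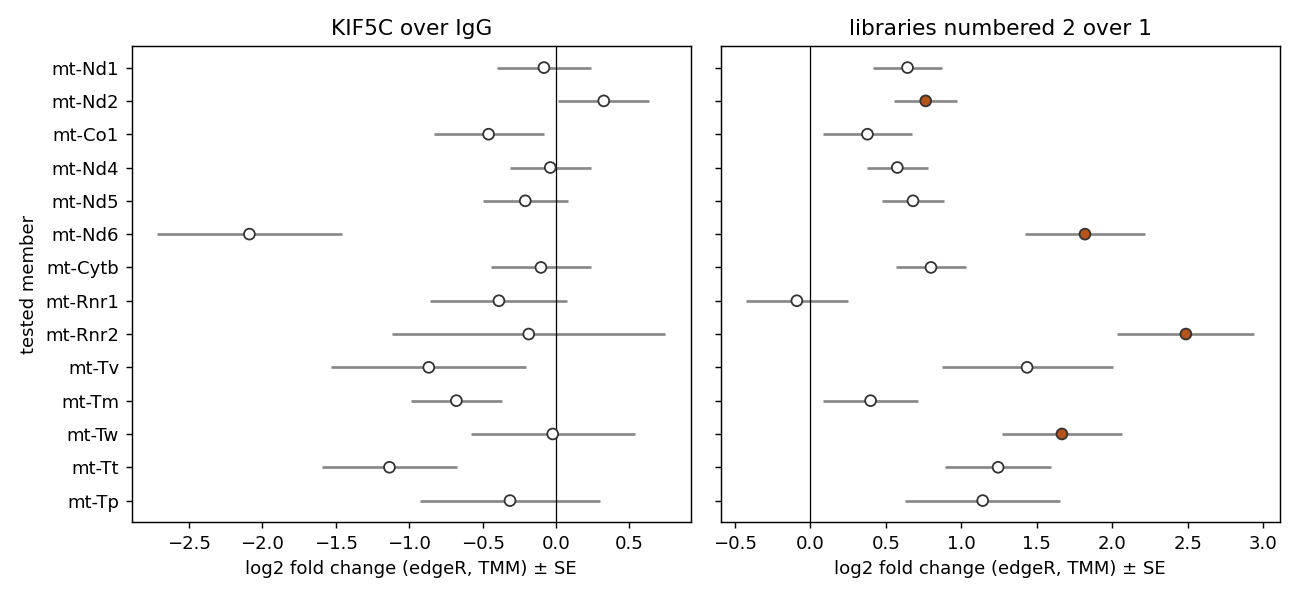
Points are log2 fold changes with their SE (bars) for the 14 tested members, at the left for KIF5C over IgG and at the right for libraries numbered 2 over libraries numbered 1; filled points passed an adjusted p of 0.05. No point is filled at the left, and 4 are at the right, with 16S rRNA at 2.49.

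The libraries numbered 2 were then compared with those numbered 1 in a fit that held the antibody constant. In this comparison 4 of 14 members rose and none fell, against 0.529% and 0.0488% of all genes tested (0.578% in either direction). At an unadjusted p under 0.05 there were 11 of 14, against 8.6% of all genes. 16S rRNA had the largest value, on the log2 scale 2.49 (SE 0.45, adjusted p = 1.84e-05), made up of 2.94 with IgG and 2.04 with KIF5C. Next came mt-Nd6 at 1.82 (SE 0.40, adjusted p = 0.00145), which was 2.90 with IgG but 0.40 with KIF5C, and 0.23 without IgG 2. mt-Tw rose by 1.67 (SE 0.40, adjusted p = 0.00638), which was 2.06 with IgG and 1.35 with KIF5C. As CPM of the library total, mt-Tw was at 1.51 in IgG 1, 3.62 in IgG 2, 2.11 in KIF5C 1 and 3.69 in KIF5C 2. The numbers did not overlap on that scale either, as in 71.4% of all genes tested. mt-Nd2 rose by 0.76 (SE 0.21, adjusted p = 0.0480), which was 1.34 with IgG and 0.21 with KIF5C. 12S rRNA was at -0.09 (adjusted p = 0.981).

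Only part of this comparison held under other tests and scalings. DESeq2 called none of the 4, with an adjusted p of 0.598 for 16S rRNA. limma-voom called 16S rRNA (adjusted p = 1.64e-16), mt-Nd6, mt-Tw and mt-Cytb (0.79, adjusted p = 0.00649), but not mt-Nd2 (adjusted p = 0.0623). 16S rRNA did not pass with a mean count of at least 50 (2.50, adjusted p = 0.0774), with mitochondrial counts as library size (0.32, adjusted p = 0.608), without the antibody term (2.47, adjusted p = 0.469) or without IgG 1 and the antibody term (2.21, adjusted p = 0.384). Library totals in place of TMM placed the median of all genes at -0.67, with 0.209% of them called higher and 36% lower. On that scale 16S rRNA at 1.81 and mt-Nd6 at 1.10 passed, mt-Tw and mt-Nd2 did not, and 12S rRNA fell by 0.76 (adjusted p = 0.0460). The TMM-scaled values of 11 of 14 members did not overlap between the numbers, against 25.6% of all genes, but with library totals this held for 5 of 14, against 71.4% of all genes. 16S rRNA and mt-Nd6 kept their direction with TMM, with library totals and in DESeq2, but mt-Nd6 was at -0.47 when the mitochondrial counts themselves served as library size. For mt-Nd1, mt-Nd4, mt-Nd5 and mt-Cytb, the positive TMM values of 0.58 to 0.80 did not pass in edgeR.

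**Figure D5:**
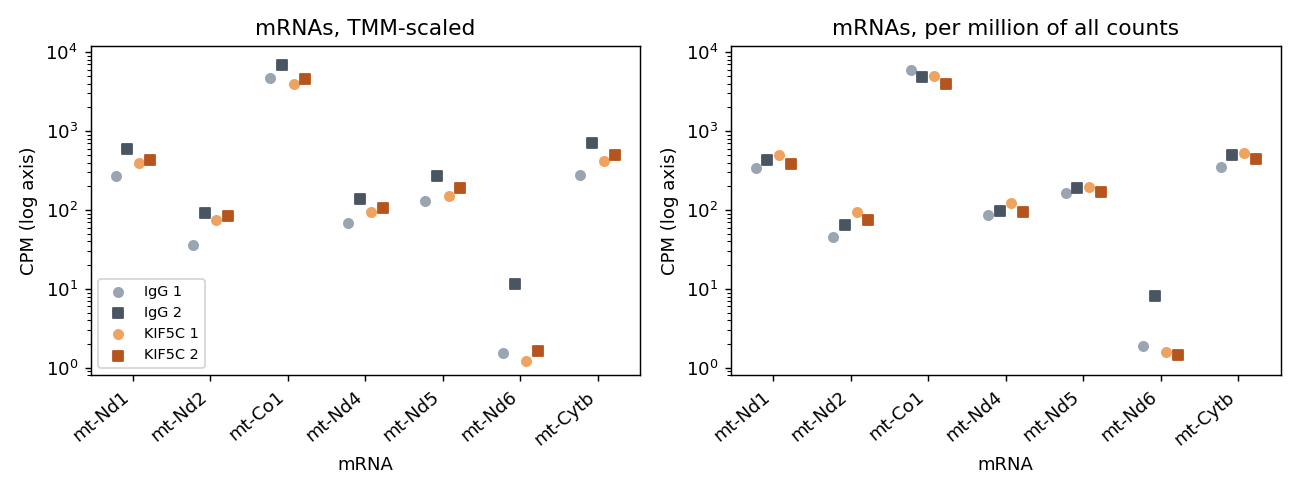
Points give CPM on a log axis for the 7 mRNAs with counts in the 4 libraries, TMM-scaled at the left and scaled to the total of all counts at the right. With TMM, IgG 2 is the highest library for each mRNA (mt-Co1 at 6918), whereas with library totals IgG 1 is the highest for mt-Co1 (5862) and KIF5C 1 for mt-Nd2 (94.1).

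Nuclear genes that act on these RNAs were counted beside them, from lists of the genes for mtDNA upkeep and transcription, for mitochondrial RNA processing, modification and decay, and for aminoacyl-tRNA synthesis in mitochondria. In the first list none of 15 tested genes passed for KIF5C over IgG, with a median log2 fold change of -0.23. Its smallest p belonged to Tfb2m, a transcription factor of mitochondrial promoters, at 1.07 (SE 0.42, adjusted p = 0.154). In the second none of 29 passed, with a median of -0.21, and Fastkd2, an RNA-binding protein that acts on 16S rRNA, was at -0.72 (SE 0.21, adjusted p = 0.0661) in edgeR and passed in DESeq2 (adjusted p = 0.0426). Pnpt1, a subunit of the mitochondrial RNA degradosome, was at -0.76 (SE 0.23, adjusted p = 0.0760). In the third list 1 of 22 rose and 1 fell, with a median of -0.09. Of all genes tested, 3.33% rose and 0.745% fell. Kars, the lysyl-tRNA synthetase of cytosol and mitochondria, was at 26.2 and 29.0 TMM-scaled CPM with IgG and at 57.8 and 53.2 with KIF5C. It rose by 1.01 (SE 0.21, adjusted p = 0.0162), but did not pass without KIF5C 1 (0.96, adjusted p = 0.158). Lars2, the mitochondrial leucyl-tRNA synthetase, fell by 6.62 (SE 1.25, adjusted p = 0.0105), and was at -0.49 without IgG 2. Its 22162 counts in IgG 2 went with 30447 there for the nuclear rRNA-like locus Gm42418. Whether these Lars2 counts came from the synthetase mRNA was not tested. For libraries numbered 2 over 1, the only gene of the 3 lists to pass was Lars2, at 3.57, which was 7.10 with IgG but -0.27 with KIF5C, and -0.47 without IgG 2.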

How the data were processed

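The deposited whole-number counts per gene were made by the authors and are not normalized. Salmon, DESeq and GRCm38 are named per the submitters' processing notes, without settings; the sources used here name neither annotation nor strandedness. The authors' deposited comparison gives log2 fold changes, p-values, mean normalized counts (a signal), a test statistic (a score) and a linear fold, of which the log2 values, their standard errors and the p-values were used.

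Counts were compared with edgeR 4.0.16 (R 4.3.3, TMM, filterByExpr with minimum count 10 and total 15) with the group as the only term, and for the replicate number with an antibody term added. SE is the size of the fold change divided by the square root of F. Alternatives were DESeq2 1.42.0, limma-voom (3.58.1), other scalings and filters, a replicate block and leaving out each library. The fits were tested on simulated data. Members, gene lists and tests were chosen with earlier results of these data known. Named genes were all members with counts, and, of each list, those with the smallest p-values. A likeness of gene patterns is not given, since 4 libraries are too few. Coordinates, lengths and sequences are from GENCODE release M21. A count of 0 was given a limit of 3 counts per library.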

Additional observations from a re-analysis of the deposited data

How the results depend on the processing

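For KIF5C over IgG, the count of members called higher was 0 and lower 0 under all scalings tried and limma-voom. It was also 0 and 0 with a mean count of at least 50 (9 members tested) and in DESeq2. DESeq2 gave no adjusted p for 5 of the 14 members, mt-Nd6 and mt-Tt among them. The count called lower was 1 at an adjusted p threshold of 0.1, where 1231 of all genes were called in either direction. It was 2 without the low-count filter (mt-Nd6 and mt-Tt), where 1163 of all genes were called. With a replicate block it was also 2, where 1679 of all genes were called, against 585 in the main fit. These were the same 2 genes, at -1.69 (adjusted p = 0.000789) and -1.03 (adjusted p = 0.0346). Leaving out each library gave 0 to 1 higher and 0 to 2 lower. Medians then ran from -0.62 to 0.55 for mRNAs, -0.81 to 0.90 for rRNAs and -1.22 to 0.52 for tRNAs, and the KIF5C minus IgG difference of the log2 16S to 12S ratio from -0.79 to 1.85. Deviations of same-numbered libraries correlated at 0.14, so a shared number alone does not establish a pairing. With the members' own counts as the total, the KIF5C minus IgG difference was -1.24 percentage points for mRNA and -0.00334 for tRNA. In the RNA processing list 1 gene was lower in DESeq2, 2 with the replicate block and 0 to 2 without 1 library. In the synthetase list 0 were higher with library totals, and 0 to 1 higher and 0 to 1 lower without 1 library. For number 2 over 1, members called higher were 7 at a threshold of 0.1, 0 in DESeq2, 2 with library totals (1 lower), 1 with a mean count of at least 50, 0 without the antibody term and 1 to 3 without 1 library. Mitochondrial counts as library size gave 0 higher and 7 lower and moved the median of all genes to -2.16. There mt-Nd1 was at -1.53, mt-Nd2 at -1.40, mt-Co1 at -1.79, mt-Nd4 at -1.59, mt-Nd5 at -1.49, mt-Nd6 at -0.47, mt-Tm at -1.77 and mt-Tw at -0.46, since 16S rRNA dominates that total. For the other shifts the cause was not tested. Leaving out a library leaves 1 in its group, assumed to vary like the others, and for the number it was done without the antibody term, an alternative chosen after seeing the data.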
